A study of Mus musculus with 26 samples.

Results

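The RNA response of mouse fibroblasts to 2 h of potassium chloride (KCl) was followed across all genes, by comparing the 2 polyA RNA libraries labelled KCl for 2 h with the 2 libraries of the control that the KCl and H2O2 treatments share. These are 4 of the 26 libraries in the series, and of the 20430 genes with counts listed, 13256 had enough counts to be tested. All libraries came from NIH3T3, an established line of mouse embryonic fibroblasts that grows as an immortalised culture, so a single cell line stands for the response. Other groups of 2 RNA libraries each served as comparisons: KCl for 7 h, H2O2 (an oxidant) for 2 h and H2O2 for 7 h, of which the last entered the fits only to estimate the spread. Ribosome footprints, the mRNA fragments protected by translating ribosomes, were sequenced in other libraries of the same groups and gave a second readout. No source used here gives the KCl and H2O2 concentrations. The labels number the replicates but do not say that they came from separate cultures, so the p-values measure only the spread between these libraries, which may be technical.

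Extra salt in the medium draws water out of cells, which shrink and then recover volume by taking up ions. Over hours the ions are replaced by compatible osmolytes such as sorbitol, inositol, taurine, betaine and neutral amino acids. The transcription factor NFAT5 (TonEBP) drives the transporters and enzymes for these osmolytes, while stress kinases of the p38 and JNK families act within minutes. Hyperosmotic stress is also known for transcription that runs past the ends of genes and into their neighbours, the subject named in the title of the study.

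The RNA libraries of the experiment held between 24441877 and 45244430 expected counts, with the control libraries (45244430 and 35775040) deeper than the KCl 2 h libraries (25207561 and 26939393). Replicates had a Pearson r of 0.995 in the control and 0.992 at KCl 2 h on log2 CPM (counts scaled to a common library size) across genes, which are not independent points. The 12 fibroblast markers summed to 9290 and 9399 TPM (transcript abundance scaled for gene length and library total) in the control and to 10584 and 10389 TPM at KCl 2 h. The 7 leukocyte markers summed to 10.1 and 9.73 TPM in the control against 20.4 and 18.6 TPM at KCl 2 h, almost all of it Cd68. Itgam went from 0.00 and 0.02 TPM to 0.33 and 0.55 TPM and Csf1r from 0.02 and 0.06 TPM to 0.62 and 0.52 TPM. Both were called higher. Lyz2 went the other way, from 0.05 and 0.06 TPM to 0.00 TPM in both KCl libraries. Ptprc and Cd3e were listed at 0 in all 4 libraries. Cd68 lies downstream of Eif4a1 and is one of the genes with read-in calls described further on. Fewer cells of a type and less RNA per cell cannot be told apart in such bulk samples. The 6 endothelial markers summed to 0.75 and 0.44 TPM in the control and to 1.35 and 1.54 TPM at KCl 2 h, with 3 of 4 tested called at least 2-fold higher. Vwf, among the 3, went from 0.02 and 0.02 TPM to 0.06 and 0.07 TPM, and its call did not hold with single libraries left out. Tek stood at 0.14 and 0.08 TPM in the control and at 0.13 and 0.11 TPM at KCl 2 h. What part these markers have in other results was not tested. The sums over both groups were 13.4 to 19.2 TPM for 7 epithelial markers and 10.6 to 14.0 TPM for 8 neuronal and muscle markers.

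Of the 13256 genes tested 7185 (54.2%) passed an adjusted p of 0.05 in the quasi-likelihood test of edgeR, and these are called changed throughout. Of the called genes 3609 were higher at KCl 2 h (27.2% of genes tested) and 3576 were lower (27.0%). Most of these changes were small: 5497 had a log2 fold change between -1 and 1. At least 2-fold changes were called for 1688 genes (12.7%), with 951 higher (7.17%) and 737 lower (5.56%), and changes of at least 4-fold for 502 higher and 184 lower genes. Both KCl libraries lay outside the range of both control libraries for 9985 genes (75.3%), which is the background for every statement on overlap below. The balance of rises and falls depends on how libraries were scaled: on TPM values the median gene moved to -0.11 on the log2 scale and 33.8% of called genes were higher, against a median of 0.00 and 50.2% with the edgeR scaling. Rises and falls are given relative to the edgeR scaling.

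**Figure D1:**
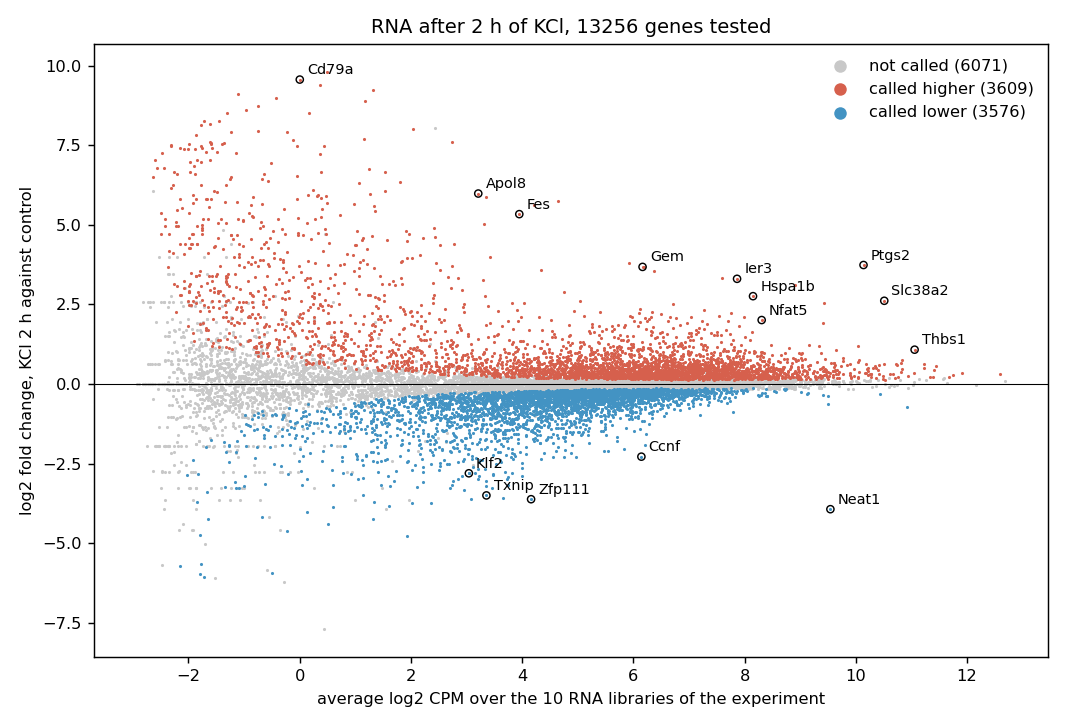
Log2 fold change at KCl 2 h against control (vertical axis) by average log2 CPM over the 10 RNA libraries of the experiment (horizontal axis), 1 point per gene tested; red marks the 3609 genes called higher, blue the 3576 called lower and grey those not called, and circles mark genes named in the text. Large rises reach further than large falls and are most frequent among scarce RNAs, while Neat1 stands alone as an abundant RNA with a large fall.

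Among well-expressed genes the 12 largest rises joined secreted signals, signalling proteins and genes that lie just downstream of highly expressed neighbours. Ptgs2, the inducible cyclooxygenase that starts prostaglandin synthesis, stood at 129 and 137 CPM in the control and at 1594 and 1958 CPM after KCl. Its rise was 3.74 ± 0.13 on the log2 scale (SE; edgeR adjusted p = 5.45e-11), and the groups were far apart. Edn1, which encodes the vasoconstrictor peptide endothelin 1, went from 1.92 and 2.33 CPM to 32.0 and 34.5 CPM, a log2 fold change of 3.98 ± 0.11. Adm, the gene of the vasodilator peptide adrenomedullin, went from 3.93 and 4.64 CPM to 50.9 and 50.8 CPM, a log2 fold change of 3.58 ± 0.14. Gem, a small GTPase that restrains calcium channels, stood at 13.1 and 12.9 CPM and then at 156 and 177 CPM. Csrnp1, a nuclear protein first described as induced by axin, stood at 11.6 and 12.3 CPM and then at 155 and 151 CPM. Plcxd2, a phospholipase C-like protein, rose by 3.81 ± 0.14 on the log2 scale.

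The largest log2 fold changes of the 12 belonged to genes that were nearly silent in the control. Apol8, an apolipoprotein L family gene, held 0.48 and 0.42 CPM in the control and 31.4 and 26.2 CPM after KCl, a log2 fold change of 5.98 ± 0.20. Pygm, the muscle form of glycogen phosphorylase, held 0.33 and 0.73 CPM and then 30.4 and 29.4 CPM, a log2 fold change of 5.86 ± 0.19. Fes, a tyrosine kinase of the myeloid lineage, held 1.49 and 1.18 CPM and then 57.8 and 51.6 CPM, a log2 fold change of 5.34 ± 0.16. All 3 are the downstream member of a pair of neighbouring genes in the study's read-in table, described further on. For Pygm the estimate was 6.48 without control replicate 2.

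Among the 12 rises, Tent4b and Ints13 are split in the table between a current and an older symbol. Ints13 held 62 and 59 counts in the control and 344 and 1941 at KCl 2 h, while its older symbol Asun held 2481 and 1893 and then 1783 and 414 counts. Tent4b held 0 and 81 counts and then 1095 and 1447, while its older symbol Papd5 held 2900 and 2276 and then 977 and 979 counts. With the symbols summed the log2 fold change was 0.80 for Ints13 (edgeR adjusted p = 2.93e-08) and 0.58 for Tent4b (edgeR adjusted p = 2.97e-06), in place of 5.02 and 5.75. The unsummed values also rested on single libraries: Ints13 was at 5.78 without KCl replicate 1 and at 3.33 without KCl replicate 2. Tent4b was at 4.59 without control replicate 1, and its value of 13.60 without control replicate 2 is set by the remaining control library being at 0 counts.

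**Figure D2:**
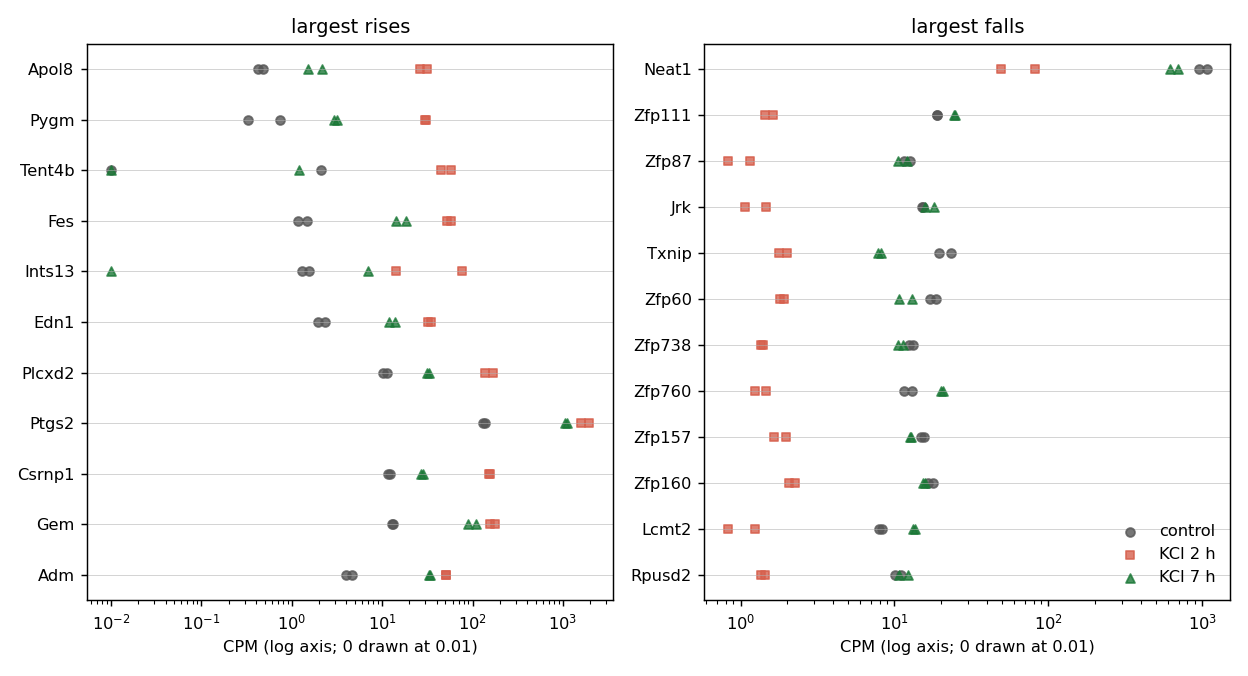
CPM on a log axis of 11 of the 12 largest rises (left) and the 12 largest falls (right), 1 marker per library, for control (grey circles), KCl 2 h (red squares) and KCl 7 h (green triangles). The KCl 2 h libraries lie outside the control libraries because the genes were chosen that way. At 7 h the levels lie nearer to the control, or past it for Zfp111, Zfp760 and Lcmt2, and some return is built into this choice. Ints13 and Tent4b are split across older symbols.

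Osmolyte genes were mostly higher at 2 h. Of 12 genes for osmolyte uptake and synthesis 8 were higher and 2 were lower, with a median log2 fold change of 0.72 against 0.00 over all genes. Slc38a2, which carries neutral amino acids into the cell, stood at 541 and 539 CPM in the control and at 3069 and 3545 CPM after KCl, a log2 fold change of 2.61 ± 0.08 (edgeR adjusted p = 3.32e-11). Among the genes that rose at least 2-fold it had the highest level after KCl, with a mean of 1478 TPM against 257 TPM in the control. Nfat5 itself rose from 137 and 144 CPM to 478 and 655 CPM, a log2 fold change of 2.01 ± 0.11. Textbook NFAT5 targets were higher too. Akr1b3, aldose reductase, which makes sorbitol, went from 121 and 121 CPM to 469 and 451 CPM, and Slc5a3, the inositol transporter, from 56.2 and 60.2 CPM to 193 and 264 CPM. Slc6a6, the taurine transporter, rose by 0.80 ± 0.08 on the log2 scale. The betaine transporter Slc6a12 was not detectable as changed at 2 h, with at most 0.04 CPM in any of the 4 libraries. Akr1b3, Slc5a3, Slc6a6 and Slc6a12 were singled out after their values were seen, because they are the classic osmolyte genes.

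The 2 lower members were Slc6a9, a glycine transporter (log2 fold change -0.20), and Gpcpd1, a choline phosphodiesterase (-0.23). Neither call was firm. Without single libraries the edgeR adjusted p of Slc6a9 reached 0.0974 (control replicate 1), 0.0819 (control replicate 2) and 0.144 (KCl replicate 2). That of Gpcpd1 reached 0.148 (control replicate 1), 0.0631 (control replicate 2) and 0.242 (KCl replicate 1).

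The promoter of Nfat5 is shown because, of the 8 osmolyte genes with a window in the RefSeq table, it alone matched the pattern GGAAANNNYNY. N stands for any base and Y for C or T, and both strands were searched. This pattern stood in for the NFAT5 site (TonE) but is spaced unlike its usual consensus, so matches are not read as TonE sites. The window runs from 250 bases before to 50 bases after the start (build GRCm38.p6, chr8:107293220-107293519, plus strand), and capitals mark the 2 matches:
Nfat5: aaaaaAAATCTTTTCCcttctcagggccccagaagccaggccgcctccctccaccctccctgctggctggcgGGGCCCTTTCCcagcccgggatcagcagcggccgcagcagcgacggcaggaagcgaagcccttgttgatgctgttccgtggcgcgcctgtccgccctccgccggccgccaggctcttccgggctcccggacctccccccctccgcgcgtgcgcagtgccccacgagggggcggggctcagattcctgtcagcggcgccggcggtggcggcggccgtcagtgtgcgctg
The pattern is loose. It was matched in 1 of 21 windows of the osmolyte genes (4.76%), in 16.42% of windows of genes tested and in 18.47% of all RefSeq windows.

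Ion transport genes that set cell volume moved less than the osmolyte genes. Of 21 tested 10 were higher and 3 lower, with a median log2 fold change of 0.36. Atp1b1, a beta subunit of the sodium pump, went from 26.2 and 26.7 CPM to 88.3 and 99.1 CPM, a log2 fold change of 1.83 ± 0.08. Wnk1, the kinase that senses chloride and activates inward cotransport, rose by 0.63 ± 0.10. The 3 lower genes were all subunits of LRRC8, the volume-regulated anion channel that opens when cells swell. Lrrc8e fell by 1.21 ± 0.10 on the log2 scale, Lrrc8a, the obligatory subunit, fell by 0.78 ± 0.10 and Lrrc8d fell by 0.28 ± 0.06, while Lrrc8c was higher by 0.54. On TPM values 5 genes of the list were lower.

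Immediate early genes, which answer growth factors and stress within minutes, were mostly higher at 2 h. Of 24 transcription factors and relatives tested 19 were higher and 4 lower, with a median log2 fold change of 1.02. Ier3, a regulator of survival under stress, went from 38.4 and 39.9 CPM to 377 and 396 CPM, a log2 fold change of 3.30 ± 0.09 (edgeR adjusted p = 9.98e-12). Ier5, which binds the heat shock factor HSF1, went from 49.1 and 56.4 CPM to 261 and 264 CPM, a log2 fold change of 2.32 ± 0.08. The 4 lower members did not move with the others. Klf2, a shear-stress and quiescence factor, fell from 14.4 and 14.8 CPM to 2.39 and 1.79 CPM, a log2 fold change of -2.81 ± 0.13. Btg2, an antiproliferative adaptor of mRNA deadenylation, fell from 16.6 and 14.7 CPM to 4.32 and 3.97 CPM. Egr1, usually the first gene to respond to mitogens, was at 97.0 and 114 CPM in the control and at 80.9 and 78.7 CPM after KCl, a log2 fold change of -0.40 ± 0.08. Jund fell by 0.39 ± 0.08.

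A CArG box (SRE), the site of serum response factor, was matched in 6 of 23 windows of the immediate early list (26.09%) against 1.63% of all RefSeq windows, in a list that holds textbook targets of that factor. Of the called-higher members with a match (Egr2, Zfp36 and Srf) Egr2, a zinc finger factor of the EGR family, had the largest rise, 1.25 ± 0.24 on the log2 scale. Its promoter (GRCm38.p6, chr10:67537316-67537615, plus strand) is shown with the CArG box in capitals:
Egr2: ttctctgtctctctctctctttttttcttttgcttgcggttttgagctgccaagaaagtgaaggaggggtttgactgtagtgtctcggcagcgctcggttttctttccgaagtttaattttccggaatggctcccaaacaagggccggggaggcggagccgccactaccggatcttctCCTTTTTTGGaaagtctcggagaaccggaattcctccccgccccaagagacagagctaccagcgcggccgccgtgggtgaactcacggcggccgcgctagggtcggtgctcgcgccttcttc

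The phosphatases and adaptors that switch MAP kinase signalling off rose as well. Of 19 tested 15 were higher and 1 was lower, with a median log2 fold change of 0.85. Dusp6, the cytoplasmic phosphatase of ERK, went from 4.34 and 5.01 CPM to 32.2 and 36.2 CPM, a log2 fold change of 2.88 ± 0.10. The single lower member was Gadd45g, an activator of the p38 pathway, which fell from 19.9 and 20.7 CPM to 9.83 and 7.67 CPM.

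Inflammatory genes of the NF-kB type rose in number. Of 22 tested 17 were higher and 1 was lower, with a median log2 fold change of 0.90. Besides Ptgs2, Tnfaip3, the ubiquitin-editing enzyme that ends NF-kB signalling, went from 24.9 and 26.8 CPM to 113 and 111 CPM, a log2 fold change of 2.12 ± 0.10 (edgeR adjusted p = 1.26e-09). The lower member was Relb, an NF-kB subunit, at a log2 fold change of -0.23. That call was lost without control replicate 1 (edgeR adjusted p = 0.142), control replicate 2 (0.0688) or KCl replicate 2 (0.255). An NF-kB consensus site was matched in 11 of 17 windows of this list (64.71%) against 8.46% of all windows, again in a list of textbook targets. Tnfaip3 is shown (GRCm38.p6, chr10:19015361-19015660, minus strand) because it had the largest rise of the 7 called-higher genes with a match, and its window held 2 sites, in capitals:
Tnfaip3: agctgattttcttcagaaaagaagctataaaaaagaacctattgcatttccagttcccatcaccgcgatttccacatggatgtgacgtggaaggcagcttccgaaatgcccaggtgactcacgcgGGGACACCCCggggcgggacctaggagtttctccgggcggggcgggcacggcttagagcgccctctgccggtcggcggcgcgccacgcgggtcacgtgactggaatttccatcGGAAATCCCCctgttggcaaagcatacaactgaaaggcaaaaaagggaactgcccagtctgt

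Genes that report on cell shape and on growth factor signals at the membrane were higher. Of 10 targets of the YAP coactivator 9 were higher and none was lower, with a median log2 fold change of 0.92. Cyr61, a secreted matricellular protein, went from 199 and 216 CPM to 1231 and 1207 CPM, and Ctgf, its relative, from 61.6 and 72.4 CPM to 301 and 327 CPM. Of 13 feedback genes of TGF-beta and BMP signalling 11 were higher and 2 lower, with a median of 1.04; on TPM values 7 were called higher. Id2, an inhibitor of basic helix-loop-helix factors, went from 9.66 and 9.64 CPM to 56.6 and 61.7 CPM, a log2 fold change of 2.61 ± 0.07. Smad6, an inhibitor of BMP signalling, fell by 0.50 ± 0.12. Of 17 actin and serum response factor genes 11 were higher and none lower, but on TPM values 6 were called higher. Fhl2, an adaptor of the actin cytoskeleton, rose by 1.20 ± 0.07 and Vcl, vinculin of focal adhesions, by 0.75 ± 0.07. Thbs1, the matrix protein thrombospondin 1, had the highest control level of all genes that rose at least 2-fold, with a mean of 729 TPM in the control and 1446.5 TPM after KCl. Tnfrsf12a, the receptor of the cytokine TWEAK, rose by 1.01 ± 0.06 and Ddx3x, an RNA helicase, by 1.06 ± 0.09.

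Of 16 chaperones of the HSF1 list, which holds cytosolic, mitochondrial and reticulum proteins, 13 were higher and none was lower, with a median log2 fold change of 0.39. Hspa1b went from 84.3 and 94.0 CPM to 581 and 625 CPM, a log2 fold change of 2.76 ± 0.12, and Hspa1a from 27.4 and 29.1 CPM to 139 and 128 CPM, 2.24 ± 0.21. The 2 genes have near-identical sequences, so the split of reads between them is uncertain. Hsph1, the Hsp110 partner of Hsp70 and the next in order, rose by 1.12 ± 0.06. A heat shock element, an array of inverted GAA repeats searched on both strands, was matched in 5 of 17 windows of the list (29.41%) against 0.60% of all windows. The matches among called-higher members were in Hsph1, Hspd1 and Hspe1. Hsph1 is shown (GRCm38.p6, chr5:149636266-149636565, minus strand), with the element in capitals:
Hsph1: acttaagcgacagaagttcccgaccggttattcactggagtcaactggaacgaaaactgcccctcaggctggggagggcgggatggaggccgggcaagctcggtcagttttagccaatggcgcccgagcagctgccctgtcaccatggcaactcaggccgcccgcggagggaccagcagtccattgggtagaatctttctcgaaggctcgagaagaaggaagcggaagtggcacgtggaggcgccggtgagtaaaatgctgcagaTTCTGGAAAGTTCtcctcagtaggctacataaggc

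Genes of the endoplasmic reticulum stress response were higher by small amounts. Of 15 tested 14 were higher and 1 lower, with a median log2 fold change of 0.36. Dnajb9, a cochaperone of the reticulum, went from 14.95 and 13.2 CPM to 48.1 and 55.2 CPM, a log2 fold change of 1.87 ± 0.12. Hspa5, the Hsp70 of the reticulum (BiP), rose by 0.76 ± 0.07. Xbp1, a transcription factor of the same pathway, fell from 40.5 and 33.6 CPM to 21.5 and 17.8 CPM, a log2 fold change of -0.92 ± 0.11.

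The integrated stress response, which works through translation control and ATF4, did not move as 1 group. Of 15 genes 6 were higher (40.0%) and 6 lower (40.0%), with a median of -0.03, against 27.2% and 27.0% of all genes tested. Ppp1r15a (GADD34), the phosphatase subunit that restores translation, went from 23.9 and 25.7 CPM to 152 and 130 CPM, a log2 fold change of 2.51 ± 0.08. Nupr1, a stress-induced chromatin protein, rose by 1.18 ± 0.10. Chac1, which degrades glutathione, fell by 0.82 ± 0.11 and Trib3, a pseudokinase induced by ATF4, by 0.75 ± 0.13. Without KCl replicate 2 only 3 genes of the list were called lower. Of 11 targets of NRF2, the factor of the antioxidant response, 7 were higher and 1 was lower, with a median of 0.22. On TPM values 4 were called higher and 2 lower. Txnrd1, thioredoxin reductase, rose by 0.57 ± 0.06, while Srxn1, sulfiredoxin, fell by 0.53 ± 0.07.

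Cell death genes moved in both directions. Of 14 BCL2 family genes 4 were higher (28.6%) and 7 lower, with a median log2 fold change of -0.20. The higher share lay near the 27.2% of all genes tested, and the lower share above the 27.0%. Mcl1, a short-lived survival protein, went from 172 and 176 CPM to 448 and 464 CPM, and Pmaip1 (NOXA), which opposes it, from 13.0 and 13.5 CPM to 49.7 and 63.5 CPM. Bmf, a pro-death protein, fell from 15.8 and 16.3 CPM to 3.004 and 3.10 CPM, a log2 fold change of -2.39 ± 0.16. Without control replicate 1 the higher count of the family was 2. Of 15 p53 targets 7 were higher (46.7%) and 5 lower (33.3%). Trp53inp1, an autophagy and death cofactor of p53, fell by 1.06 ± 0.12 and Phlda3, an inhibitor of AKT signalling, fell by 1.04 ± 0.09. Gdf15, a secreted stress cytokine, was called higher at a level under 1 CPM in all 4 libraries (log2 fold change 2.18 ± 0.44).

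The largest fall among well-expressed genes was that of Neat1, the long noncoding RNA that builds nuclear paraspeckles. It stood at 951 and 1064 CPM in the control and at 82.3 and 49.5 CPM after KCl, a log2 fold change of -3.93 ± 0.18 (edgeR adjusted p = 6.35e-10). It also had the highest control level of all genes that fell at least 2-fold, with 693 TPM in the control against 26.2 TPM after KCl. The fall was larger on TPM than on CPM, so its size depends on the measure. Malat1, the noncoding RNA of nuclear speckles that neighbours Neat1 in the genome, rose from 306 and 337 CPM to 497 and 641 CPM, a log2 fold change of 0.82 ± 0.11. Firre, a nuclear noncoding RNA of the X chromosome, fell by 0.72 ± 0.10. These libraries were polyA-selected, so the values describe polyadenylated RNA only.

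Txnip, the alpha-arrestin that restrains glucose uptake and binds thioredoxin, fell from 23.4 and 19.6 CPM to 2.02 and 1.79 CPM, a log2 fold change of -3.50 ± 0.13. All 4 alpha-arrestins tested were lower, with a median of -1.74: Arrdc2 fell by 2.01 ± 0.14, Arrdc3 by 1.47 ± 0.08 and Arrdc1 by 0.56 ± 0.08. Proteins of this family bring membrane transporters to ubiquitin ligases. Ccnf, cyclin F, a substrate receptor of the SCF ubiquitin ligase, fell from 113 and 112 CPM to 24.03 and 22.2 CPM, a log2 fold change of -2.28 ± 0.06. Jrk, a nuclear protein related to transposases, fell by 3.58 ± 0.15. Lcmt2, a tRNA-modifying enzyme, and Rpusd2, of the pseudouridine synthase family, fell by 2.98 ± 0.16 and 2.91 ± 0.14. Osr1, a zinc finger factor of mesoderm, fell by 1.19 ± 0.08.

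Of the 12 largest falls 7 were zinc finger genes of the numbered Zfp series, most of which encode KRAB repressors of transposable elements or factors of unknown targets. Zfp111 fell from 18.9 and 19.0 CPM to 1.44 and 1.63 CPM, a log2 fold change of -3.62 ± 0.11. Zfp87 fell from 12.7 and 11.6 CPM to 1.15 and 0.83 CPM, and the others (Zfp60, Zfp738, Zfp760, Zfp157 and Zfp160) had log2 fold changes between -3.26 and -2.99. Of 365 numbered Zfp genes 332 were tested, of which 254 were lower (76.5%, against 27.0% of all genes) and 26 higher, and 167 were lower by at least 2-fold. The median log2 fold change was -1.05, and it was -0.94 in KCl replicate 1 and -0.92 in KCl replicate 2 when each was set against the control mean. The shift was not limited to scarce RNAs: of the 194 whose mean log2 CPM over the libraries reached 3, 144 were lower (74.2%), against 30.9% of all genes at that level. On TPM values 243 were called lower and 13 higher. Many of these genes are near copies of one another, so the division of reads among them is uncertain for any single gene.

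**Figure D3:**
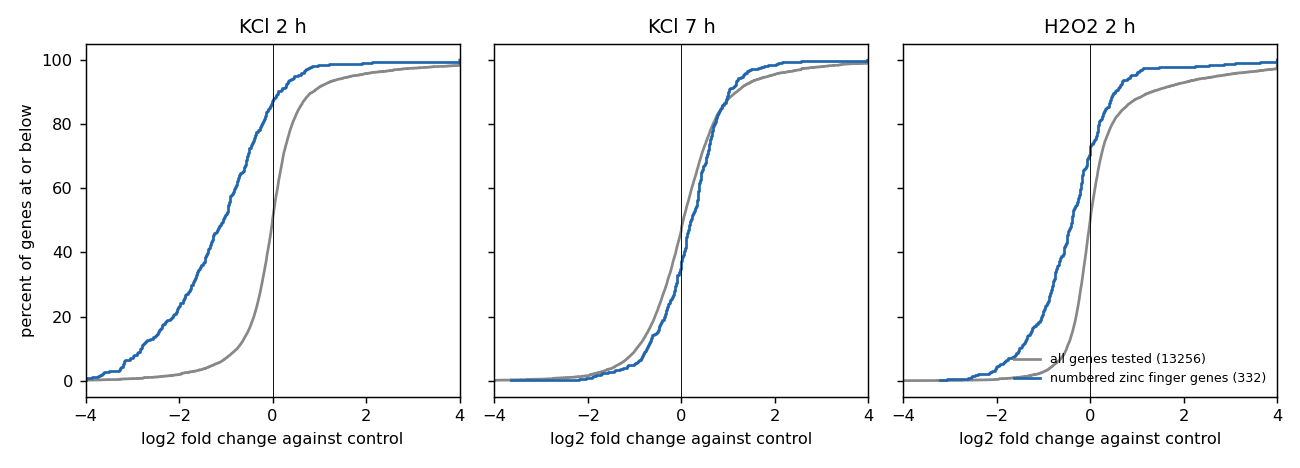
Cumulative share of genes (vertical axis, percent) at or below a log2 fold change against control (horizontal axis), for all 13256 genes tested (grey) and the 332 numbered zinc finger genes (blue), at KCl 2 h, KCl 7 h and H2O2 2 h, which share the control libraries. At KCl 2 h the blue curve is shifted to the left by about 1 log2 unit (median -1.05), at KCl 7 h its median is 0.20 and at H2O2 2 h it is -0.40.

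Metal-handling genes fell together. Mt1 and Mt2, the metallothioneins that buffer zinc, and Slc30a1, the zinc exporter of the plasma membrane, are all targets of the zinc sensor MTF1. Mt1 fell from 144 and 147 CPM to 94.3 and 86.1 CPM, Mt2 from 81.4 and 88.8 CPM to 56.0 and 53.1 CPM, and Slc30a1 from 9.08 and 10.3 CPM to 4.36 and 4.29 CPM. The log2 fold changes were -0.69 ± 0.06, -0.64 ± 0.07 and -1.16 ± 0.15. Interferon-stimulated genes also fell: of 18 tested 11 were lower and 1 was higher, with a median of -0.51. Stat2, a subunit of the interferon-activated factor, fell from 104 and 114 CPM to 36.9 and 35.7 CPM, a log2 fold change of -1.58 ± 0.12. Mx2, an antiviral GTPase, fell from 4.18 and 4.80 CPM to 1.11 and 0.99 CPM. The single rise was that of Ifit2, an RNA-binding antiviral protein, by 0.39 ± 0.07.

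Of 24 genes for 3' end cleavage and termination 5 were higher (20.8%) and 6 lower (25%), with a median log2 fold change of 0.00. These shares lie near those of all genes tested, 27.2% and 27.0%. Pcf11, a termination factor that binds the polymerase tail, went from 53.3 and 56.0 CPM to 169 and 201 CPM, a log2 fold change of 1.76 ± 0.09 (edgeR adjusted p = 2.11e-09). Rbbp6 and Cstf3, both parts of the cleavage machinery, rose by 1.15 ± 0.09 and 0.90 ± 0.06. Papolg, a nuclear polyA polymerase, fell from 20.9 and 22.2 CPM to 6.58 and 6.55 CPM, and Cstf1 fell by 0.85 ± 0.07. The other 2 higher genes were Xrn2, the nuclease that releases polymerase, with a log2 fold change of 0.28, and Fip1l1 with 0.22. The call of Fip1l1 was lost without control replicate 1 (edgeR adjusted p = 0.113) or KCl replicate 2 (0.185).

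Of 12 Integrator subunits tested 3 were higher and 2 lower. Both shares lay below those of all genes tested, 27.2% and 27.0%. Ints6 rose by 1.05 ± 0.06, while Ints5 fell by 0.98 ± 0.07 and Ints12 by 0.60 ± 0.09. Ints2 rose by 0.33 ± 0.08, and the remaining higher entry, Ints13, is the gene split across symbols. Without KCl replicate 2 the edgeR adjusted p of Ints2 was 0.0513. Of 16 genes of P-TEFb and elongation 8 were higher and 3 lower. Here the higher share lay above that of all genes tested and the lower share below it. The 2 cyclin T genes, alternative partners of the kinase CDK9, went opposite ways: Ccnt1 went from 83.5 and 89.2 CPM to 179 and 223 CPM, and Ccnt2 from 29.7 and 29.6 CPM to 10.5 and 9.30 CPM. Their log2 fold changes were 1.22 ± 0.09 and -1.58 ± 0.09. The CLK kinases, which phosphorylate splicing factors, split in a like way. Clk1 rose by 0.91 ± 0.07 and Clk4 by 0.92 ± 0.06, while Clk2 fell from 34.0 and 35.9 CPM to 13.1 and 11.2 CPM, a log2 fold change of -1.52 ± 0.09.

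Housekeeping genes moved little. Of 80 cytosolic ribosomal protein genes 73 did not pass the test, 6 were higher and 1 lower, and their log2 fold changes lay close to the median of 0.00. On TPM values, where the median of all genes lay at -0.11, 26 of the ribosomal protein genes were called lower and none higher. No direction is therefore given for them. The lower count was 17 without KCl replicate 1 and the higher count 2 without control replicate 2 and 3 without KCl replicate 2. Of 73 nuclear subunits of the respiratory chain 61 did not pass, and their median was -0.003. 

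**Figure D4:**
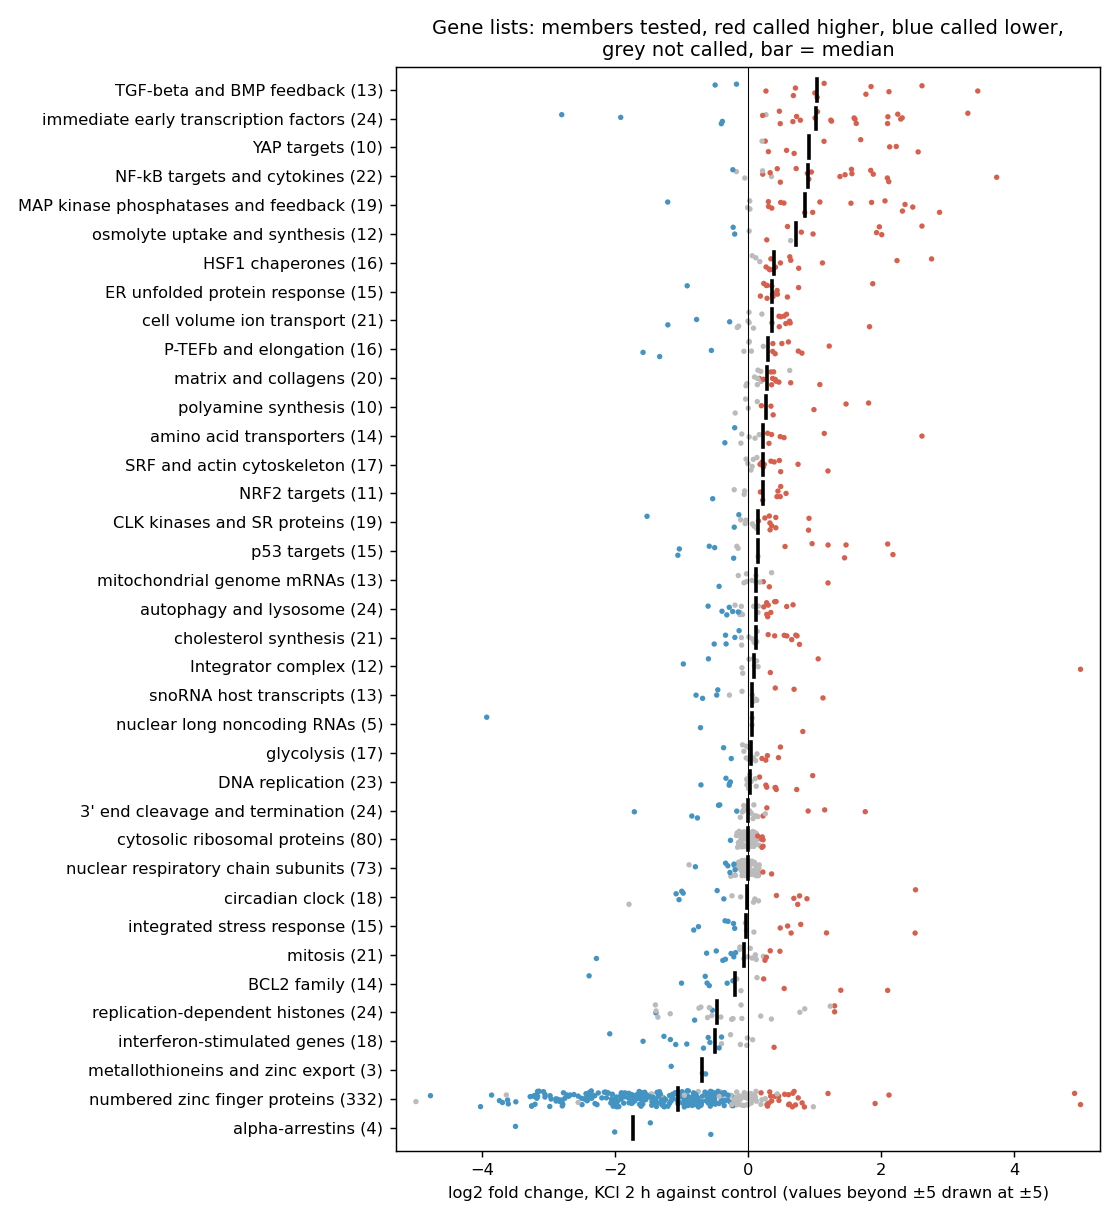
Log2 fold change at KCl 2 h against control for each tested member of the gene lists (points, with values beyond 5 drawn at 5), with the number tested in parentheses and the list median as a black bar; red points were called higher, blue lower and grey were not called. The medians run from -1.74 for the alpha-arrestins and -1.05 for the numbered zinc finger genes to 1.02 for immediate early genes and 1.04 for TGF-beta and BMP feedback, with ribosomal proteins at 0.00.

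The study's own subject, transcription from 1 gene into the next, was tabulated for pairs of genes. For 6399 pairs of neighbouring genes the authors deposited calls of downstream-of-gene transcripts (DoGs), which run on past the end of the upstream gene, and of read-in, where such transcription reaches the downstream gene. In the authors' deposited table DoGs were called for 1551 and 1615 pairs in the control libraries and for 2042 and 2220 at KCl 2 h. Read-in was called for 36 and 35 pairs in the control and for 174 and 189 at KCl 2 h. These calls come from the same reads as the counts, so they are a second description of these libraries and no independent evidence. Of the pairs 110 had read-in in both KCl libraries and in neither control library, and 108 of their downstream genes were tested. Among these 60 were called higher (55.56%) and 16 lower (14.81%), against 28.93% and 27.19% of the downstream genes of all pairs. Their median log2 fold change was 0.27, and that of the 103 upstream genes tested was -0.01.

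Of these downstream genes 13 were under 1 CPM in the control, and 12 of them were called higher. Among all 2165 genes tested at that control level 622 were called higher (28.7%). The 13 were selected by read-in called from the same KCl reads, and a gene so scarce in the control passes the count filter only through libraries where it is higher, so their rise is a description and no support. Cd79a, a subunit of the B cell receptor, had 0 counts in both control libraries and 64 and 87 counts at KCl 2 h, at least 87.8-fold higher when 3 counts are allowed over the 2 control libraries. Its upstream neighbour Rps19, a ribosomal protein gene, ends 7685 bases before it on chromosome 7 (GRCm38.p6, Cd79a at 24897497 to 24901858). Rps19 stood at 240 and 247 CPM in the control and at 261 and 238 CPM after KCl, and its change did not pass the test (edgeR adjusted p = 0.685). Fes lies 1239 bases beyond the end of Furin, a protein convertase, on the minus strand of chromosome 7 (Fes at 80377758 to 80387954). Furin stood at 165 and 175 CPM and then at 218 and 199 CPM, a log2 fold change of 0.30 ± 0.07, against 5.34 for Fes.

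Other pairs had the same form. Apol8 lies 3522 bases beyond Myh9, the nonmuscle myosin heavy chain, on the minus strand of chromosome 15 (Apol8 at 77745109 to 77757062). Pygm lies 6369 bases beyond the splicing factor gene Sf1 on the plus strand of chromosome 19 (Pygm at 6384408 to 6398464). Cspg5, a brain proteoglycan, lies 3604 bases beyond the chromatin remodelling gene Smarcc1 on chromosome 9 and went from 0.10 and 0.10 CPM to 10.3 and 11.6 CPM. Gnrh1, the gene of the hypothalamic hormone that releases gonadotropins, lies 2870 bases beyond Kctd9 on chromosome 14 and went from 0.62 and 0.68 CPM to 17.7 and 16.2 CPM. The upstream genes Myh9, Sf1, Smarcc1 and Kctd9 had log2 fold changes of 0.34, 0.15, 0.13 and 0.55. Such rises were not particular to KCl. In H2O2 at 2 h the log2 fold changes against the same control were 3.84 for Apol8, 5.09 for Pygm and 4.63 for Cspg5. They were 1.77 for Gnrh1 and 2.66 for Fes. Of the 951 genes that rose at least 2-fold 24 had gained read-in (2.52%), or 4.94% of the 486 that are the downstream member of a tabulated pair. Over all tabulated pairs, 108 of the 5105 downstream genes tested had gained read-in. Among the 12 largest rises 6 are the downstream member of a pair, and 3 had gained read-in.

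**Figure D5:**
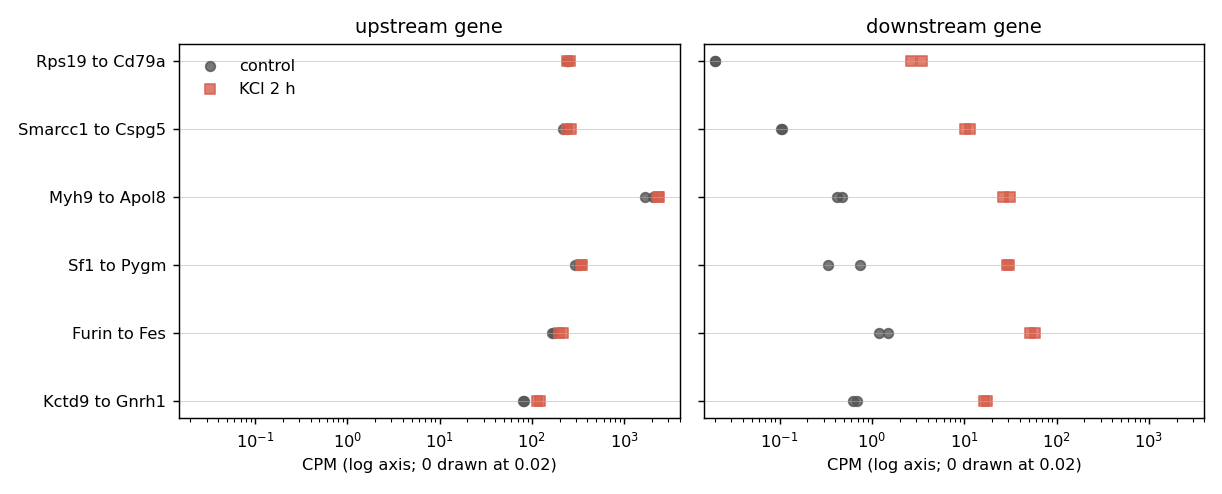
CPM on a log axis of the upstream gene (left) and the downstream gene (right) of 6 neighbouring pairs, 1 marker per library, for control (grey circles) and KCl 2 h (red squares); a value of 0 is drawn at 0.02. Upstream genes differ far less between the groups than downstream genes, and downstream genes rise from under 1.5 CPM in every control library to between 2.63 and 57.8 CPM.

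Against H2O2 for the same time, 6794 genes differed (51.3%), with 3212 higher in KCl (24.2%) and 3582 lower (27.0%), or 376 (2.84%) and 1293 (9.75%) at a difference of at least 2-fold. The control libraries enter this comparison only through the shared filter, scaling and spread. Genes that stood higher in KCl included Hspa1b, at 581 and 625 CPM in KCl against 74.2 and 52.5 CPM in H2O2, a log2 difference of 3.25 ± 0.12, and all 13 HSF1 chaperones that differed were higher in KCl. Slco4a1, an organic anion transporter, stood at 114 and 121 CPM in KCl against 17.1 and 17.3 CPM in H2O2. Frat2, which promotes WNT signalling, stood at 28.7 and 26.9 CPM against 2.79 and 3.34 CPM. For Gper1, a membrane estrogen receptor, and Hoxa9, a homeobox factor, the log2 differences were 3.68 ± 0.18 and 3.54 ± 0.10. Both were higher than the control in KCl and had log2 values of -1.38 and -2.27 against the control in H2O2.

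Lower in KCl than in H2O2 were genes of the stress pathways that H2O2 is known for. Btg2 stood at 4.32 and 3.97 CPM in KCl against 124 and 134 CPM in H2O2, a log2 difference of -4.96 ± 0.11. Sesn2, a stress-induced inhibitor of mTORC1 signalling, stood at 11.2 and 10.4 CPM against 188 and 173 CPM. Slc7a11, the cystine importer, stood at 10.8 and 14.0 CPM against 132 and 146 CPM. Chac1 stood at 6.17 and 5.24 CPM against 104 and 91.0 CPM, and Tcim, a small regulator of WNT signalling, at 8.76 and 6.40 CPM against 156 and 145 CPM. By list, 19 of 24 immediate early genes, 18 of 22 NF-kB genes, 13 of 15 p53 targets and 11 of 15 genes of the integrated stress response were lower in KCl than in H2O2. Zinc finger genes were also lower in KCl, 205 of 332, with 21 higher. Neat1 stood at 774 and 634 CPM in H2O2, and its log2 difference was -3.42 ± 0.18.

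Sesn2 and Slc7a11 differed little from the control at KCl 2 h, and those smaller calls did not hold throughout. Sesn2 had a log2 fold change of -0.30, with an edgeR adjusted p of 0.187 without control replicate 2 and of 0.126 without KCl replicate 2. Slc7a11 had one of 0.48, with an edgeR adjusted p of 0.0658 without control replicate 1 and of 0.147 without KCl replicate 2.

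Much of the 2 h response had receded or reversed at 7 h of KCl. Between the 2 times 9120 genes differed (68.8%), with 4659 higher at 7 h (35.1%) and 4461 lower (33.7%). At least 2-fold differences were called for 2896 genes (21.8%), with 1576 higher (11.9%) and 1320 lower (9.96%). Of the 951 genes that had risen at least 2-fold, 627 were lower at 7 h than at 2 h and 105 higher, and of the 737 that had fallen at least 2-fold, 639 were higher at 7 h and 20 lower. All 12 largest rises were lower at 7 h, and all 12 largest falls were higher. Because these genes were chosen for extreme values in the same 2 h libraries, some return toward the control is built into these counts. Neat1 stood at 698 and 620 CPM at 7 h. Ptgs2 was at 1111 and 1060 CPM.

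The groups differed in how they lasted. Osmolyte genes mostly went on rising: 8 of 12 were higher at 7 h than at 2 h and 2 lower, against 35.1% and 33.7% of all genes tested. Their median log2 fold change against the control was 1.97 at 7 h and 0.72 at 2 h, and their median difference between the times was 0.58. The 2 h and 7 h values share their control. Of the immediate early genes 21 of 24 were lower at 7 h, and of the MAP kinase feedback genes 16 of 19. Hspa1b held its level, with 600 and 659 CPM at 7 h and a log2 difference from 2 h of 0.06 ± 0.11. Of the zinc finger genes 265 of 332 were higher at 7 h than at 2 h. Metallothionein and zinc export genes fell further, by 0.73 (Mt1), 1.78 (Mt2) and 1.45 (Slc30a1) on the log2 scale between the times. Interferon-stimulated genes were lower still, 12 of 18, with a median of -1.16 against the control at 7 h.

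Ribosome footprints, from other libraries of the same treatment with 3051649 to 3925402 counts each, resolved far fewer changes. Of 10545 genes tested 723 were called (6.86%), with 189 higher (1.79%) and 534 lower (5.06%). At least 2-fold changes were called for 580 (5.50%), with 127 higher (1.20%) and 453 lower (4.30%). The count fell to 248 without control replicate 1, 421 without control replicate 2, 238 without KCl replicate 1 and 211 without KCl replicate 2. Of the 12 largest rises in RNA 10 were tested in footprints and 6 were higher; of the 12 largest falls 11 were tested and 8 were lower. Slc38a2 went from 575 and 648 footprint CPM to 3650 and 3198 CPM, and Hspa1b from 101 and 146 CPM to 890 and 915 CPM. Gem went from 8.80 and 7.42 CPM to 81.9 and 53.9 CPM, a log2 fold change of 3.06 ± 0.27. Ptgs2 rose by 1.48 ± 0.24 in footprints against 3.74 in RNA. Zfp111 went from 14.2 and 12.6 footprint CPM to 1.01 and 1.39 CPM, and of 256 numbered zinc finger genes tested 56 were lower and 3 higher, with a median of -1.06. All 3 zinc-handling genes were lower in footprints, by 2.10 ± 0.34 for Mt1 on the log2 scale. Other lists had footprint medians opposite in sign to their RNA medians. NF-kB genes had 2 higher and 2 lower of 19 in footprints, with a median of -0.38 against 0.90 in RNA. MAP kinase feedback genes had 1 higher and 3 lower of 18, with a median of -0.21 against 0.85. Interferon-stimulated genes had 0 higher and 1 lower of 16, with a footprint median of 0.22 against -0.51, so no rise was called among them.

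Of the genes with gained read-in 88 were tested in footprints, of which 1 was called higher (1.14%) and 3 lower (3.41%). Among the downstream genes of all pairs the shares were 2.02% and 5.38%, so the counts lay near the background. Apol8 had 0 footprint counts in both control libraries and 1.01 and 1.04 CPM after KCl, which did not pass the test (edgeR adjusted p = 0.134). Fes, Pygm, Cd79a, Cspg5 and Gnrh1 had too few footprints to be tested, so a change in their translation was not detectable at this depth.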

How the data were processed

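Genes were quantified by the authors and deposited in the form of expected counts and TPM for polyA RNA and ribosome footprints. The submitters' processing notes name STAR, RSEM, Bowtie and the build mm10 without saying which step each served, and no source used here gives the strand of counting. The authors also deposited true or false calls of DoGs and read-in for gene pairs, with an estimate given as a ratio whose formula no source used here gives. Of the deposited columns 12 were not used.

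Expected counts were rounded to whole numbers and tested with the quasi-likelihood test of edgeR 4.0.16 in R 4.3.3, with TMM scaling and the filterByExpr filter. The 10 RNA libraries shared 1 estimate of the spread, p-values were adjusted over all genes tested with the Benjamini-Hochberg method, and CPM are scaled by library size and TMM factor. Alternatives used DESeq2 1.42.0, limma 3.58.1 on log2(TPM + 1) or log2(TPM + 0.1) for genes with a mean of at least 1 TPM, other filters and scalings, and each library left out. The scripts were tested on simulated data.

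Named genes were the 12 largest rises and 12 largest falls whose mean log2 CPM reached 3 with no overlap between groups, the largest changes within each list, the most abundant genes changed at least 2-fold, the largest differences from H2O2 and the largest rises among genes with gained read-in. Other genes were named after their values were seen, and the members and lists were chosen with earlier results of these data known. Some genes are not reported here. Promoter windows come from RefSeq, build GRCm38.p6.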

Additional observations from a re-analysis of the deposited data

Results flagged for a closer look

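For 25 of the genes named in the text the changes from the control at 2 h and at 7 h of KCl were called in opposite directions, and the difference between the times was itself called by edgeR. The 2 h and 7 h values share their control libraries. Opposite calls were not counted over all genes tested, and many of the named genes were chosen for large changes at 2 h. The 25 are therefore a list and give no rate. Of all genes tested 54.2% were called at 2 h and 68.8% differed between the times. The values that follow are log2 changes from 2 h to 7 h of KCl.

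Of the 25 genes 16, with Papd5 counted as an entry of its own, were lower than the control at 2 h and higher at 7 h. The change was 3.99 for Zfp111, 3.91 for Zfp760, 3.69 for Lcmt2 and 3.0 for Bmf. It was 2.51 for Ciart, 2.47 for Trp53inp1, 2.30 for Ccnt2, 2.08 for Chac1 and 2.04 for Papolg. It was 1.39 for Slc6a9, 1.35 for Lrrc8a and 1.34 for Ints12. For Srxn1, Aurka and Cstf1 it was 1.27, 1.21 and 1.02. For Papd5 it was 1.45, but Papd5 is the older symbol of Tent4b. With the symbols summed that gene was higher than the control at 2 h (log2 fold change 0.58), so the fall of Papd5 is not that of the whole gene.

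The other 9 were higher than the control at 2 h and lower at 7 h. The largest such change was -3.26 for Ctgf, which stood at -1.03 against the control at 7 h. It was -1.69 for Cd68, -1.38 for Tnfrsf12a, -1.36 for Thbs1 and -1.11 for Slc7a11. It was -0.71 for Hspe1, -0.63 for Hspd1, -0.62 for Ints2 and -0.35 for Sf1. Several 2 h calls were lost without 1 library: Slc7a11 without control replicate 1 (edgeR adjusted p = 0.0658) or KCl replicate 2 (0.147), Ints2 without KCl replicate 2 (0.0513), and Slc6a9 without control replicate 1 (0.0974), control replicate 2 (0.0819) or KCl replicate 2 (0.144).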

How the results depend on the processing

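At a fold change of at least 2, the called genes numbered 1688 for KCl 2 h against control (951 higher, 737 lower), 1669 against H2O2 (376 higher, 1293 lower) and 2896 between the times (1576 higher, 1320 lower). On log2(TPM + 1) and log2(TPM + 0.1) the genes higher at KCl 2 h than in the control numbered 2284 and 2268, and those higher than in H2O2 1922 and 1892. The share of calls that were higher than in H2O2 was 34.5% on log2(TPM + 1), against 47.3% with the edgeR scaling. For footprints the same TPM scales gave 455 and 458 calls, of which 92 and 90 were higher, and a fit of only the groups compared gave 463, of which 335 were lower. The higher share of footprint calls was 26.1%, 35.2% with DESeq2 and 36.5% without KCl replicate 2.

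With 1 library left out, the calls against control ran from 5958 to 7113 (2948 to 3637 higher, 3010 to 3476 lower) and against H2O2 from 5539 to 6357 (2512 to 3122 higher, 3013 to 3235 lower). Between the times they ran from 8250 to 8624 (4260 to 4488 higher, 3990 to 4240 lower). Footprint calls ran from 211 to 421 (64 to 105 higher, 134 to 316 lower), and the cause of the lower counts was not tested. Of 205 named genes 41 lost their call in at least 1 of 12 alternatives, none of them among the 24 largest changes. Those 24 were chosen for large called changes in these same libraries, so their keeping a call is largely set by the choice. A kept call can also hide a change in size. With symbols summed, Ints13 and Tent4b kept theirs at log2 fold changes of 0.80 and 0.58, in place of 5.02 and 5.75. No reversal was found among the named genes each alternative tested, which were 196 on the TPM scales, 200 in the fit of only the groups compared and 205 in the others.

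Replicates with the same number did not deviate together (r from -0.0489 to 0.0474). The replicate block gave 7317 calls against control (3676 higher, 3641 lower), 6936 against H2O2 (3322 higher, 3614 lower), 9213 between the times (4708 higher, 4505 lower) and 708 in footprints (193 higher, 515 lower).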

Other observations

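Of 18 clock genes 6 were higher (33.3%) and 6 lower (33.3%) at 2 h of KCl, near the shares of all genes tested (27.2% and 27.0%). Rora, a nuclear receptor that activates Bmal1, went from 2.03 and 2.59 CPM in the control to 11.5 and 14.7 CPM, a log2 fold change of 2.52 ± 0.15. Dbp and Ciart, both outputs of the clock, had log2 fold changes of -1.08 ± 0.14 and -1.04 ± 0.17. Of 10 polyamine genes 6 were higher and none lower. Sat1, which acetylates polyamines for export, went from 107 and 103 CPM to 286 and 297 CPM, and its footprints rose by 1.37 ± 0.22 on the log2 scale.

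Of 23 DNA replication genes 8 were higher (34.8%) and 5 lower (21.7%), also near the shares of all genes. Orc1 and Cdc6, which license origins, rose by 0.97 ± 0.07 and 0.73 ± 0.07, with footprints higher by 1.09 ± 0.20 and 1.12 ± 0.18, while Ccne1, cyclin E1, fell by 0.71 ± 0.10. Of 21 mitosis genes 4 were higher (19.05%) and 8 lower (38.1%), and the lower count depended on control replicate 1. Aurka, a spindle kinase, fell by 0.63 ± 0.07. Of 21 cholesterol synthesis genes 8 were higher (38.1%) and 5 lower (23.8%), and without control replicate 1 the lower count was 3.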
